A study of Mus musculus with 2 samples.

Results

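The Mir34 and Mir449 genes of the mouse are 6 microRNA (miRNA) genes at 3 loci: Mir34a alone, Mir34b with Mir34c, and Mir449a with Mir449b and Mir449c. They were taken by symbol from a table of 1973 miRNA genes. The rule for a gene's entry uses its symbol and no measured value, though the family was picked for study with earlier results of these data known. Their levels were described in small RNA from the midbrain of B6NCrl embryos at 15.5 days of development. The labels describe healthy tissue pooled over male and female embryos, with RNA under 30 bases selected for sequencing. Replicate 1 pooled 78 embryos and replicate 2 pooled 62, and both are labelled as biological replicates. They form 1 group with no treated, mutant or older counterpart, so the comparisons are among the members, among the loci and between the pools.

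A miRNA guides the Argonaute protein to messenger RNAs that pair with its seed, the bases near its 5′ end, and lowers the output of those messages. The miR-34 and miR-449 miRNAs share a seed. They are known for their part in making multiciliated cells, the cells with many motile cilia that line the airway, the oviduct, the brain ventricles and the choroid plexus, where they repress Cp110, an inhibitor of cilium growth, and components of Notch signalling. The Mir34 genes are also known as transcriptional targets of the tumour suppressor p53.

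The mature 5p sequences show what unites the loci. RefSeq (GRCm38.p6) gave entries for 5 of the 6 members, with 9 mature sequences. Mir449b and the 5p arm of Mir34c had no match in the table. The sequences below run 5′ to 3′, and the capitals mark the seed, bases 2 to 8.
miR-34a-5p: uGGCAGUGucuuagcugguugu
miR-34b-5p: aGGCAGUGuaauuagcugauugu
miR-449a-5p: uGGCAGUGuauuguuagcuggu
miR-449c-5p: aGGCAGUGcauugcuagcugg

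The seed GGCAGUG was identical in these 4 sequences and occupied the seed position of no other mature entry, which makes 4 of 1738 (0.230%). Outside the seed the sequences differed, within the Mir449 locus and between loci. Compared base by base without gaps from the 5′ end, miR-449a-5p and miR-449c-5p matched at 18 of 21 positions. Their differences were U1A, U9C and U14C, with the base of miR-449a-5p first. miR-34a-5p and miR-449a-5p, from different chromosomes, matched at 15 of 22 positions. miR-34a-5p and miR-34b-5p matched at 11 of 22. miR-34b-5p has 23 bases and miR-34a-5p 22, and an extra base within a sequence puts the later bases out of step. No comparison with gaps was made, so these counts do not rank the members by likeness.

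The hairpins from which the mature miRNAs are cut place the same letters in each locus. Here the capitals mark the first match of the seed letters, and all hairpins run 5′ to 3′ on their own strand.
Mir34a, chr4:150068454-150068555, plus strand: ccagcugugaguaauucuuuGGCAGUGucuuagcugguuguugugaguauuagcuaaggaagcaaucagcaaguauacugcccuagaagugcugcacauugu
Mir34b, chr9:51103562-51103645, minus strand: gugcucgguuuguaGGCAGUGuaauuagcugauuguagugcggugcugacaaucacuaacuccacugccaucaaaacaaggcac
Mir34c, chr9:51103034-51103110, minus strand: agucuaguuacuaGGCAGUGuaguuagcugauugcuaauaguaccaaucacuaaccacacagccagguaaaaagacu
Mir449a, chr13:113037534-113037624, plus strand: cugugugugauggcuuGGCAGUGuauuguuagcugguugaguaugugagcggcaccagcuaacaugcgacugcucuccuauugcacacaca
Mir449c, chr13:113035983-113036091, plus strand: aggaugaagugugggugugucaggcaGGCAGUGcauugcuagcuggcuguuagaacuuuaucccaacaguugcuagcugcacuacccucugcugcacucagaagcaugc

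The letters began at base 14 of the Mir34c hairpin. They occurred on the given strand of 17 of 1005 hairpins (1.69%), these 5 included. A match of 7 letters describes the sequence and nothing more. On the other arm of the hairpin the family divided. miR-34b-3p and miR-34c-3p had 1 seed in common, shown in capitals, and matched at 17 of 22 positions, whereas miR-34a-3p had another.
miR-34b-3p: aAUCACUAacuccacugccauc
miR-34c-3p: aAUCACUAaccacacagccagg
miR-34a-3p: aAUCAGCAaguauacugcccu

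The 3p arms of Mir449a and Mir449c matched at 7 of 22 positions, beside 18 of 21 for their 5p arms, again compared without gaps. The deposited counts are per gene and do not separate the 5p arm from the 3p arm. Every level below is therefore the level of a hairpin gene, not of the arm that carries the shared seed.

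The 3 loci lie in different settings in the mm10 assembly. Mir34a on chromosome 4 overlapped by 17 bases an exon of Gm37795, an unclassified transcript on the same strand, and the protein-coding gene Gpr157 began 18.8 kb downstream. Mir34b and Mir34c on chromosome 9 lay 0.45 kb apart within an intron of Btg4, which is transcribed from the opposite strand. The Mir449 genes lay within an intron of Cdc20b on the same strand of chromosome 13. Mir449b, at chr13:113037419-113037498, was separated from Mir449a by 35 bases and from Mir449c by 1327 bases. Upstream of them on the same strand were Mcidas, 35.6 to 37.1 kb away, and Ccno, 45.2 to 46.8 kb away, both known regulators of the multiciliated cell programme. The files measure miRNA genes, so levels of Cdc20b, Mcidas and Ccno were not analysed here.

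Depth set what could be read from each member. The libraries held 3429704 sense reads on miRNA genes in replicate 1 and 5752476 in replicate 2, so that 1 read was worth 0.292 and 0.174 CPM, the counts scaled to an equal total over all genes. Reads with several mapping places, which were assigned to no gene, made up 37.7% and 35.8% of all reads. None of the members shared a run of 16 bases with another miRNA transcript of the annotation. The longest shared runs were 11 to 14 bases. Of the 7 neuronal miRNA genes listed as markers of the tissue, Mir137 was highest at 10800 and 11585 CPM. The 3 Mir124a copies, whose mature miRNA is a defining marker of neurons, were lowest, at means of 3.69, 3.26 and 0.552 CPM for Mir124a-1, Mir124a-2 and Mir124a-3. The part of reads with several mapping places in these low values was not tested.

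Mir449a was the leading gene of the family. Its level was 2268 CPM in replicate 1 and 2125 CPM in replicate 2, from 7779 and 12226 reads, or 2197 ± 101 CPM (SD, n = 2). It ranked 71 by mean level among the 1973 genes, of which 717 had a count in either library. It alone gave 78.3 ± 0.317% of the reads of the 6 members. The other genes of its locus were close to the detection limit of 1 CPM. Mir449c was measured at 3.21 and 1.56 CPM, from 11 and 9 reads, and ranked 400. Mir449b was measured at 2.33 and 1.22 CPM, from 8 and 7 reads, and ranked 416. Both were above 3 reads, the floor used for a gene with no read, in each library. The floor was 0.875 CPM in replicate 1 and 0.522 CPM in replicate 2. In whole tissue, fewer cells of a type and less RNA per cell cannot be told apart, and this holds for every level given here.

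Mir34c was the second gene of the family, with 552.5 and 536 CPM from 1895 and 3085 reads (544 ± 11.5 CPM, SD, n = 2, rank 120). Its neighbour Mir34b was measured at 18.7 and 15.8 CPM, from 64 and 91 reads (17.2 ± 2.01 CPM, rank 288). Mir34a, the member most often studied as a p53 target, stood between them at 44.3 and 42.6 CPM, from 152 and 245 reads (43.5 ± 1.22 CPM, rank 247). Each of these 3 genes therefore kept its place in both libraries without overlap with the next.

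**Figure D1:**
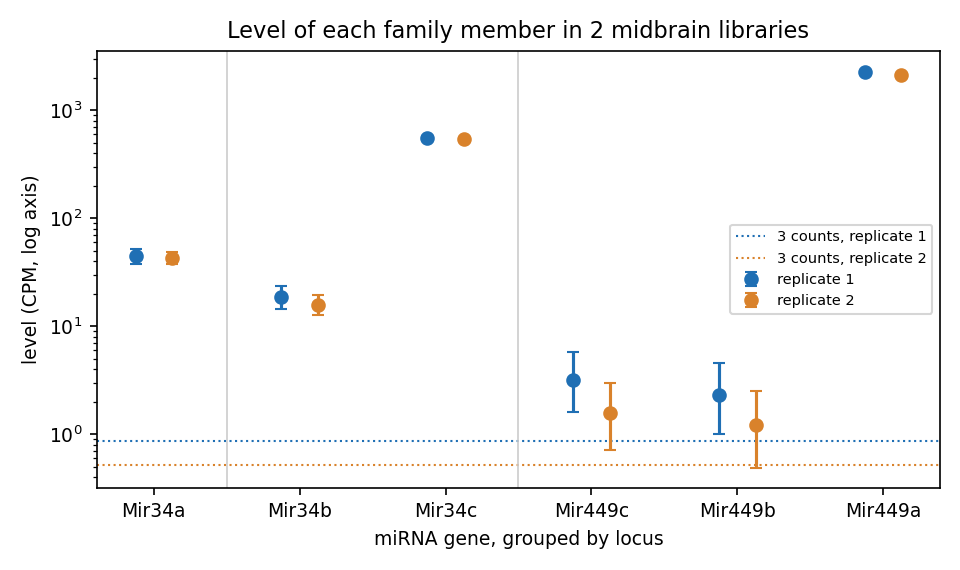
Levels of the 6 members in CPM on a log axis, with the genes grouped by locus; each point is 1 library, the bars are exact 95% intervals for counting error, and dotted lines mark 3 counts in each library. Mir449a sits at 2268 and 2125 CPM, while Mir449c and Mir449b sit between 1.22 and 3.21 CPM.

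The order of the levels was Mir449a, Mir34c, Mir34a, Mir34b, Mir449c and Mir449b, the same in both libraries. The neighbours Mir449c and Mir449b did not differ beyond their spread. Their ratio was 1.38 in replicate 1, with an exact 95% interval of 0.504 to 3.94, and 1.29 in replicate 2, with an interval of 0.426 to 4.06. Every other pair of neighbours in the order was apart in both libraries. The closest of these were Mir34a and Mir34b, with ratios of 2.38 (1.76 to 3.23) and 2.69 (2.11 to 3.46). After scaling to the median annotated length of 87.5 bases the order held, except that Mir449b (1.94 CPM) and Mir449c (1.92 CPM) changed places. These intervals cover counting error only, since the reads were not counted as independent molecules. The spread between the libraries does not show how evenly different sequences were captured, a limit of every comparison between genes here.

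**Figure D2:**
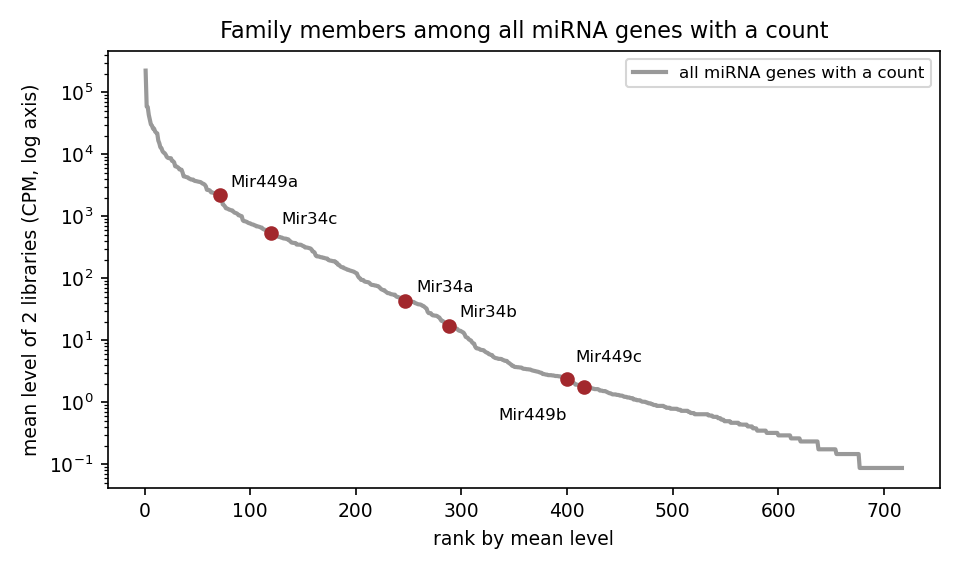
Mean level over 2 libraries (CPM, log axis) of every miRNA gene with a count against its rank, with the 6 members marked. The members run from rank 71 for Mir449a to rank 416 for Mir449b.

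By locus, the Mir449 genes led in both libraries. The locus summed to 2274 and 2128 CPM, or 2201 ± 103 CPM (SD, n = 2), and gave 78.4 ± 0.380% of the family's reads. Mir34b and Mir34c together reached 571 and 552 CPM (562 ± 13.5 CPM), or 20.02 ± 0.359% of the family. Mir34a gave the remaining 1.55 ± 0.0214%. The whole family came to 2889 and 2723 CPM, which was 0.281 ± 0.0118% of the reads on miRNA genes.

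The gaps between loci were far larger than the spread between libraries. The Mir449 locus exceeded the Mir34b and Mir34c locus 3.98-fold in replicate 1 (95% counting interval 3.79 to 4.18) and 3.85-fold in replicate 2 (3.71 to 4.01). The mean log2 ratio was 1.97 ± 0.033 (SD, n = 2). The Mir34b and Mir34c locus exceeded Mir34a 12.9-fold (10.9 to 15.3) and 12.96-fold (11.4 to 14.8). The proportions of the 3 loci were thus nearly the same in the 2 pools of embryos. With 2 libraries no permutation test can pass 0.05, and none was made.

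Within both loci of several genes, 1 gene gave nearly all reads. Mir34c exceeded Mir34b 29.6-fold in replicate 1 (23.1 to 38.6) and 33.9-fold in replicate 2 (27.5 to 42.2). Mir449a exceeded Mir449c 707-fold (395 to 1417) and 1358-fold (715 to 2972). Mir449a exceeded Mir449b 972-fold (493 to 2253) and 1747-fold (847 to 4345). The wide intervals reflect the 7 to 11 reads of Mir449b and Mir449c, and the 2 libraries' intervals overlapped for each of these ratios. Mir449a and Mir449b, 35 bases apart, thus differed more in level than any pair of loci, of which the Mir449 locus over Mir34a was the widest at 51.3-fold and 49.97-fold.

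The same measure was taken in all 63 clusters of miRNA genes, meaning neighbours on a shared strand no more than 10 kb from the next, of which 2 or more had a count. Genes without a count were left out of the folds, and so were 8 pairs and 3 larger clusters with only 1 counted gene. Of these 8 pairs, 2 had a gene of at least 100 CPM, the highest being Mir137 at 11192 CPM. Set against a floor of 3 reads, Mir137 stood 12347-fold and 22213-fold higher in replicates 1 and 2. Every rank below is therefore a rank among clusters with at least 2 counted genes. For the cluster of Mir34b and Mir34c, the fold between highest and lowest member was 31.6 on mean levels. It ranked 28 of 63, beside a median of 22.1 in the others. Among the 27 clusters of exactly 2 genes whose highest gene reached 100 CPM it ranked 12, beside a median of 17.1. Clusters were then kept only where no counted gene shared a run of 18 bases with another miRNA transcript. Genes without a count were not checked for shared runs. The cluster of Mir34b and Mir34c then ranked 8 of 27 (median of the others 6.64) and 4 of 10 such pairs (median 4.91). The Mir449 cluster stood first by a narrower measure. Its highest gene exceeded the next by 921-fold, rank 1 of 18 clusters of at least 3 genes, where the median of the other 17 was 2.08. Mir449a held 99.8% of the reads of its cluster, beside a median of 59.5% for the highest gene of the others. Comparing the highest with the next gene was chosen after the data were seen. Among the 8 of these clusters in which no counted gene shared 18 bases, that fold again ranked 1, beside a median of 1.62. The fold between highest and lowest counted gene, 1238, ranked 7 of 18. That rank leaves out genes without a count, which 8 of the 18 clusters held, so those clusters' full range can be wider than their fold. In 8 of the 17 others the lowest gene shared 18 bases with another miRNA transcript of the annotation. The part of reads with several mapping places in those folds was not tested.

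**Figure D3:**
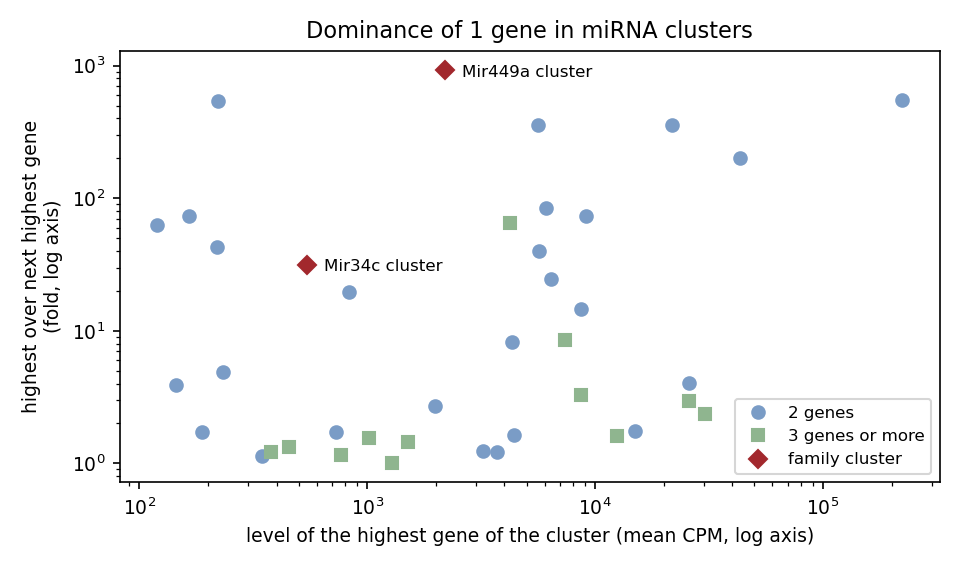
Each point is 1 miRNA cluster whose highest gene has a mean of at least 100 CPM; the horizontal axis is the mean level of the highest gene (CPM) and the vertical axis its fold over the next highest gene, both log axes. Of the clusters drawn, the Mir449a cluster lies highest at 921-fold, and the Mir34c cluster at 31.6-fold lies among the clusters of 2 genes. Clusters with only 1 counted gene are not drawn, among them the pair of Mir137 (11192 CPM).

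Predicted folding was compared with level for the 5 members that had a hairpin sequence. By minimum free energy per base, the Mir449a hairpin was more stable than 81.6% of 1005 RefSeq hairpins, at -44.5 kcal/mol in all. Mir34a was more stable than 54.5%, Mir34b than 45.0%, Mir34c than 42.8% and Mir449c than 39.6%. Among these 5, Mir449a was thus first and Mir449c last in stability per base as in level. Mir34c, however, stood behind Mir34a and Mir34b, which it exceeded in reads. The last place of Mir449c depends on dividing by length, since its hairpin is the longest at 109 bases. In all, it had -41.8 kcal/mol, beside -42.6 for Mir34a, -33.1 for Mir34b and -29.8 for Mir34c.

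Reads were almost wholly on the annotated strand. The opposite strand of Mir34b held 2 reads in replicate 2 and 0 in replicate 1, and the other 5 members held 0 in both. A further 4 mature miRNAs contain the letters GGCAGUG outside the seed position. Mir6897 had 19 and 16 reads, Mir7079 had 0 and 4, and Mir7007 and Mir1946b had 0 in both.

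The genes closest to each member in level over the 2 libraries, by Euclidean distance in log2(CPM + 1), did not include another member, and none of their entries in the RefSeq table had the family's seed. For Mir449a they were Mir125b-1 (distance 0.048; 2264 and 2197 CPM), Mir125b-2 and Mir107. For Mir34c they were Mirlet7c-2 (0.068; 531 and 523 CPM), Mir330 and Mir28a. For Mir34a they were Mir224 (0.045; 45.2 and 41.5 CPM), Mir30c-2 and Mir7689, and for Mir34b they were Mir3064, Mir3066 and Mir466n. Near the detection limit, Mir449b was closest to Mir7059, Mir5103 and Mir5100, and Mir449c to Mir29b-1, Mir6986 and Mir7063. With 2 libraries of 1 tissue this likeness is one of abundance only.

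The 2 pools were then compared for each member, as log2 of replicate 2 over replicate 1 on CPM + 1 after TMM scaling of the library sizes. All 6 members were lower in replicate 2, as were 46.4% of the 717 genes with a count and 51.2% of those of at least 100 CPM. The difference was -0.13 for Mir449a (95% counting interval -0.168 to -0.086), a 1.09-fold higher level in replicate 1. It passed a two-sided conditional exact binomial test with Benjamini-Hochberg adjustment over 717 genes (adjusted p = 1.41e-08). Mir34c differed by -0.08, with a counting interval of -0.160 to 0.0068 (adjusted p = 0.243 by the same exact test). The values were -0.09 for Mir34a, -0.26 for Mir34b, -0.61 for Mir449b and -0.74 for Mir449c, with adjusted p of 0.338 to 0.880 by the exact test. Low read numbers leave wide room for these last 2 genes.

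The count of 1 of 6 members called, higher in replicate 1, has to be read against the background. Of all 717 genes with a count, 10.04% were called higher in replicate 1 and 9.76% higher in replicate 2. Of the genes with at least 100 CPM, a level that only Mir449a and Mir34c reached, 29.1% were called higher in replicate 1 and 28.1% higher in replicate 2. A single call among 6 is no result about the members. The median of the 6 log2 differences was -0.19, beside 0.04 over the 717 genes and -0.0044 over the genes of at least 100 CPM. The test allows for counting error but not for variation between pools of embryos. With a 10% coefficient of variation assumed in edgeR's exact test, 0 members were called, and 0 passed at an unadjusted p under 0.05.

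**Figure D4:**
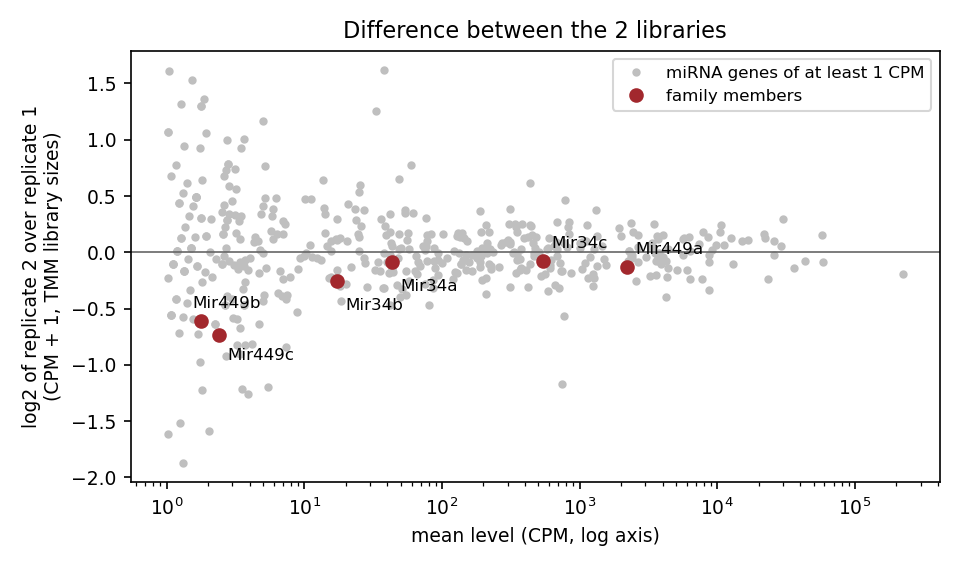
Difference between the libraries (log2 of replicate 2 over replicate 1 on CPM + 1) against mean level (CPM, log axis) for miRNA genes of at least 1 CPM, with the 6 members marked. All 6 lie below 0, Mir449a at -0.13 and Mir449c lowest at -0.74, within the cloud of other genes.

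Lists of other epithelial and cilia-associated miRNAs summed higher in replicate 2, as did the neuronal, proliferation and blood lists given below. Each member of the family was lower there, but only Mir449a was called, at 1.09-fold. Calls in these lists rest on the same exact test, which does not allow for variation between pools. The 10% coefficient of variation was tried for the members only. Whether family and lists moved in opposite directions was not tested. Mir204, a miRNA abundant in choroid plexus and pigment epithelium, was 1129 and 1497 CPM, higher in replicate 2 (adjusted p = 1.91e-40, exact binomial test). Mir211 of the same list was 16.6 and 14.4 CPM (adjusted p = 0.672). The list summed to 1146 and 1511 CPM, and 1 of its 2 genes was called, higher in replicate 2. Of the other cilia-associated pair, whose products also repress Cp110, Mir129-1 was 46.9 and 61.5 CPM (adjusted p = 0.0473, exact binomial test). Mir129-2 was 190 and 199 CPM (adjusted p = 0.913, exact binomial test). That list summed to 236 and 261 CPM, with 1 of 2 called higher in replicate 2. The epithelial list summed to 657 and 803 CPM, with 3 of 7 genes called higher in replicate 2, beside 9.76% of all genes with a count and 28.1% of those of at least 100 CPM. These were Mir203 (568 and 635 CPM), Mir429 (37.03 and 59.97 CPM) and Mir205 (17.8 and 57.9 CPM), and no gene of the list was at 0. Only Mir203 reached 100 CPM, so the share of 28.1% is no background for Mir429 and Mir205, nor for Mir129-1. Of the 70 genes called higher in replicate 2, 57 had at least 100 CPM, so such calls were rarer at lower levels. The part of such cells in the level of the family was not tested.

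The other lists showed where Mir34a and the rest stood beside the miRNAs of related programmes. The list of miRNAs linked to p53 other than Mir34 summed to 8698 and 7960 CPM. Of its 8 genes, Mir15a (3422 and 3017 CPM) and Mir16-1 (2779 and 2383 CPM) were called higher in replicate 1, and none higher in replicate 2. Its member Mir192 was 88.6 and 85.7 CPM (adjusted p = 0.769, exact binomial test). The proliferation list, the Mir17 cluster, summed to 38913 and 40925 CPM, with 3 of 6 genes called higher in replicate 1 and 1 in replicate 2. The background for calls higher in replicate 1 was 10.04% of all genes and 29.1% of those of at least 100 CPM. Whether any of these short lists departed from it was not tested. Of 7 neuronal genes, 3 were called higher in replicate 2, and the list summed to 16182 and 17494 CPM. The background for calls higher in replicate 2 was 9.76% of all genes with a count and 28.1% of those of at least 100 CPM. Mir126a of endothelium was 24909 and 21568 CPM and was called higher in replicate 1. None of the 4 blood genes, which summed to 358 and 362 CPM, was called. The median log2 difference of replicate 2 over replicate 1 was 0.65 in the epithelial list, 0.19 in the other cilia-associated list, 0.07 in the choroid plexus list and 0.05 in the neuronal list. It was -0.04 in the p53 list, -0.06 in the proliferation list and 0.01 in the blood list, beside 0.04 over all genes with a count.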

How the data were processed

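The authors deposited, for each of the 2 libraries, whole read counts per miRNA gene without regard to strand, on the sense strand and on the other strand. The deposited readme names mm10 and GENCODE M4. For aligner and counter, the names were not given in the sources used here. Sense counts were used as CPM over all genes. The 4 rows naming no gene were kept out. Of these, unmapped reads made up 13.4% and 16.9% of all reads. Symbols and coordinates came from GENCODE M21 on the same assembly, and miRNA sequences from RefSeq. Levels and ratios are means ± SD over 2 libraries, with exact Clopper-Pearson intervals at 95%. The libraries were compared with an exact binomial test at TMM sizes (edgeR 4.0.16), adjusted over genes with a count. That test compares libraries, not conditions. Hairpins were folded with RNAfold 2.7.2. Procedures were tested on simulated counts that held counting error only, so variation between pools was not covered.

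Members, lists and tests were chosen with earlier results of these data known. Named genes were the members, holders of the seed letters, neighbours in the genome, the 3 genes nearest each member in level and up to 4 genes of each list. Alternatives were other scalings, pseudocounts, filters, strand columns, a 10% coefficient of variation and leaving out a replicate. The 2 restrictions on clusters (highest gene of at least 100 CPM, and no run of 18 bases shared by a counted gene) were added after seeing the data.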

Additional observations from a re-analysis of the deposited data

How the results depend on the processing

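Of 35 alternatives for levels and ratios that kept both replicates, 25 moved the value by less than the spread between replicates. Of 61 alternatives for ratios and single members, 0 reversed the sign, but dividing by gene length turned the order of Mir449b (1.94 CPM) and Mir449c (1.92 CPM). Scaled to all mapped reads, the mean levels were 1157 CPM for the Mir449 locus, 295 for Mir34b and Mir34c, 22.9 for Mir34a and 1475 for the family. Divided by gene length, the Mir34b and Mir34c locus stood at 637 CPM and Mir34a at 37.3 CPM, the log2 ratio of the Mir449 locus over Mir34b and Mir34c was 1.73, and that of Mir34b and Mir34c over Mir34a was 4.09. With a pseudocount of 1 CPM the latter was 3.66, and Mir449a over Mir449b was 9.66 on the log2 scale. These shifts follow from the scaling itself, and the order of the loci held in each. Between libraries, edgeR's exact test with a 10% coefficient of variation called 0 members in place of 1. For single members, 35 of 36 alternatives kept the call, the exception being Mir449a under that test. Part of this agreement was fixed in advance. A pseudocount enters neither the exact test nor the sign of a difference, and an added coefficient of variation can in practice only remove a call.

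Leaving out each replicate, which with 2 libraries always moves a mean by less than their SD, gave 2128 to 2274 CPM for the Mir449 locus, 552 to 571 CPM for Mir34b and Mir34c, 42.6 to 44.3 CPM for Mir34a and 2723 to 2889 CPM for the family. The difference between libraries could not be run with 1 library. No paired analysis was possible because there is 1 group. Depth limits Mir449b and Mir449c, with 7 to 11 reads each, so that ratios to them are known only within several-fold.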
